A study of Mus musculus with 12 samples.

Results

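The regions described here are broad H3K4me3 promoters of mouse melanoma cells. They are the autosomal H3K4me3 peaks of the WT cells that were at least 4000 bp wide and overlapped no H3K27me3 peak of the WT cells. The rule found 716 such peaks among the 14723 WT H3K4me3 peaks. The width and the lack of H3K27me3 in WT were used to choose the promoters and are given as description. Another 117 autosomal WT peaks of that width overlapped H3K27me3, and 7 lay on chromosome X. No gene annotation of the build of the peak lists was used here, so "promoter" rests on the histone mark and the regions carry no gene names.

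The peaks come from ChIP-seq, which sequences the DNA bound to an immunoprecipitated chromatin mark. Cells of 2 genotypes were profiled for 5 histone modifications, with a single library for each modification in each genotype and an input library per genotype. Mutant cells came from mice with both Kmt2d alleles conditional (KMT2DL/L), and WT cells from mice with both intact (KMT2D+/+). Mice of both genotypes carried the Cre transgene Tyr-CreERT2, the doxycycline-responsive pair Rosa26-rtta and TetO-BRAFV600E, and conditional alleles of the tumour suppressor loci (PTENL/L and INK/ARFL/L) on a mixed FVB and B6 background. Tyr-CreERT2 is a tamoxifen-activated Cre driven by a promoter of the melanocyte lineage, so conditional alleles recombine in that lineage. Ear tumours were started with doxycycline, which turns on the oncogenic BRAF, and with 1 uM 4-OHT, a tamoxifen metabolite, on the skin. The labels give neither the age of the mice nor the number of tumours behind each culture, so a genotype may stand for a single tumour. The recombination of Kmt2d cannot be read from peak lists of histone marks and was not checked here.

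H3K4me3 is placed around the start sites of active or poised genes, usually as a narrow peak. At some genes the mark spreads over several kilobases into the gene body, and such broad domains are known from other cell types to lie at genes of cell identity and at tumour suppressor genes. KMT2D is a methyltransferase best known for H3K4me1 at enhancers, the mark that also lines the edges of promoters. H3K27ac accompanies active promoters and enhancers, H3K79me2 is laid down by DOT1L in the first part of transcribed genes, and H3K27me3 is the mark of Polycomb repression.

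The peak lists, on the mouse build mm9, differed in length as a whole. The mutant H3K4me1 list held 5358 peaks and the WT list 15981. For H3K79me2 the mutant list held 22103 peaks and the WT list 26353. The lists of the other marks were closer in length, with 13691 mutant and 14723 WT peaks for H3K4me3. The read depth is unknown, and a missing peak means that none passed the threshold of the authors' peak caller. With 1 library per genotype and mark, no difference between genotypes was tested and no p-value is given. Exact 95% intervals on shares of peaks cover counting error alone.

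Every broad promoter had an H3K4me3 peak in the mutant, 716 of 716 (100%, 95% interval 99.5 to 100), where 88.6% of all autosomal WT H3K4me3 peaks had. This was not particular to the set. A mutant peak was also found at 4762 of 4787 WT peaks (99.5%) of 2000 bp to under 4000 bp without H3K27me3. All 117 broad peaks with WT H3K27me3 had one as well. The widest mutant peak over a promoter measured 4847 bp at the median (interquartile range 4226.75 to 5970.5 bp), and the WT peak measured 4780.5 bp (4279.75 to 5711.5 bp). The mutant peak was itself at least 4000 bp wide at 586 promoters, or 81.8% (78.8 to 84.6). At most of the other 130 the width stayed close to that limit, as 71 of them had a mutant peak of at least 3500 bp and 3 had none of 2000 bp.

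The width difference between mutant and WT had a median of 10.5 bp, and a range from -5534 to 8833 bp. The mutant peak was wider at 367 promoters and narrower at 349, a share of 51.3% (47.5 to 55.0) wider. Among all autosomal WT H3K4me3 peaks with a mutant peak, 71.5% were wider in the mutant and the median difference was 168 bp. This contrast belongs to the mark the rule used. When the mutant list set the promoters in the same way, it gave 875 regions with a median width of 4803 bp in the mutant and 4393 bp in WT, and a median difference of 422 bp. Over the 1024 regions that were broad in either genotype the median difference was 278 bp. The size of the typical width difference thus moved with the genotype that was used to choose the peaks.

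**Figure D1:**
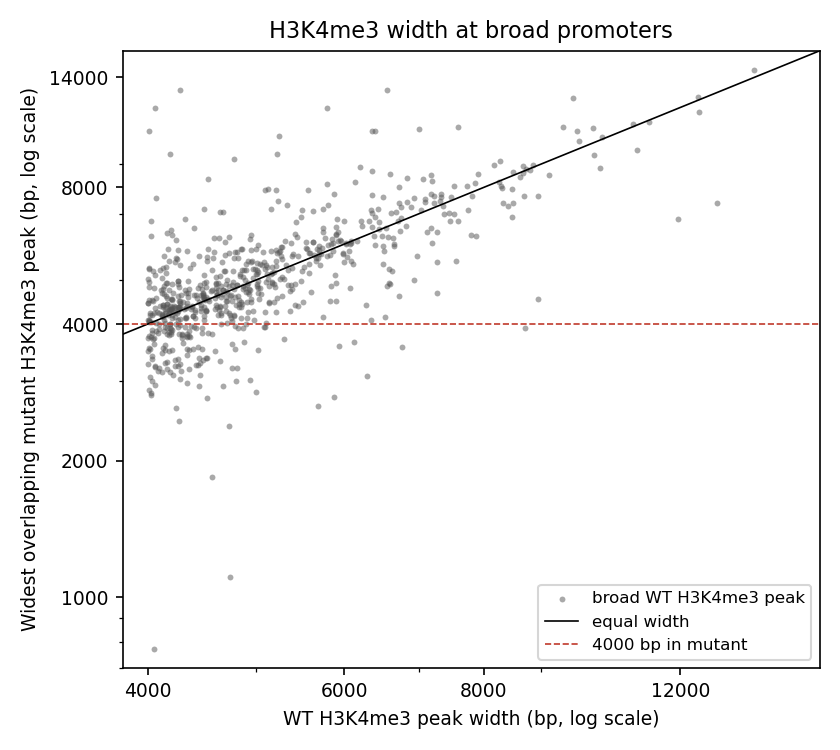
Width of the widest overlapping mutant H3K4me3 peak (vertical axis, bp, log scale) against the width of the WT peak (horizontal axis, bp, log scale) at the 716 broad promoters, 1 point each. The points lie along the line of equal width, 367 above and 349 below it, and 586 are at or above the dashed line at 4000 bp.

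Large differences in width were the minority. A mutant peak at least 25% wider than the WT peak was found at 69 promoters, or 9.64% (7.58 to 12.04), where the share among all autosomal peaks with a mutant peak was 21.0%. A mutant peak at least 20% narrower was found at 87, or 12.2% (9.85 to 14.8), where that share was 4.82%. These counts rest on the WT width that chose the promoters. With mutant peaks choosing them, 248 of 875 (28.3%, 25.4 to 31.5) were at least 25% wider in the mutant and 23 (2.63%, 1.67 to 3.92) at least 20% narrower, so the balance turned. Joining and splitting of peaks was frequent in these groups. At 33 of the 69 promoters with a wider peak, the mutant peak spanned 2 or more WT peaks. At 35 of the 87 with a narrower one, the WT peak faced 2 or more mutant peaks.

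The 5 widest promoters show both patterns. The widest lay on chromosome 11 from 69220205 to 69234179, with a mutant H3K4me3 peak of 14504 bp against 13975 bp in WT. On chromosome 15 from 76002210 to 76014658 the mutant peak was 12631 bp and the WT peak 12449 bp wide. On chromosome 5 from 143573036 to 143585519 the mutant peak was 11747 bp and the WT peak 12484 bp wide. In these 3 a single broad peak stood in each genotype. The other 2 were split in the mutant and also had the largest losses of width. On chromosome 15 from 85499051 to 85511994 there were 3 mutant peaks, the widest of 7410 bp, against 12944 bp in WT. On chromosome 7 from 31197664 to 31209605 there were 2, the widest of 6801 bp, against 11942 bp in WT.

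The next largest losses were both on chromosome 9 and were splits as well. From 57485290 to 57493996 the widest of 2 mutant peaks was 3925 bp wide, against 8707 bp in WT. From 119885315 to 119894265 it was 4550 bp wide, against 8951 bp in WT. H3K27ac nevertheless covered nearly all of both regions in each genotype, with 8707 and 8711 bp in the mutant and 8671 and 8861 bp in WT. Of the largest gains in width, 2 were a pair of neighbouring WT peaks joined in the mutant. These lay on chromosome 3 from 89188806 to 89193086 and from 89194373 to 89200933, under a single mutant peak of 13114 bp, against 4281 and 6561 bp in WT. The others were on chromosome 19 from 4296453 to 4300517, with 11987 bp in the mutant and 4065 bp in WT, and on chromosome 7 from 20399955 to 20403970, with 10667 bp in the mutant and 4016 bp in WT. With peaks merged across gaps of up to 1000 bp, the mutant-minus-WT differences of these last 2 were 1494 and 180 bp. Those of the split peaks on chromosome 7 and chromosome 9 were then -105, -1745 and -521 bp in the order given.

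H3K27ac was present at nearly all broad promoters in both genotypes. It overlapped 709 of 716 in the mutant, or 99.0% (98.0 to 99.6), and 712 in WT, or 99.4% (98.6 to 99.8). Its cover, the share of a promoter's length that lay under an H3K27ac peak, had a median of 91.3% in the mutant and 93.2% in WT, and a mean of 83.7% in the mutant and 85.4% in WT. The whole promoter was covered at 210 of them in the mutant and at 205 in WT. The paired difference had a median of 0, as it did over all autosomal WT H3K4me3 peaks. H3K27ac cover was lower in the mutant at 305 promoters, higher at 258 and equal at 153.

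A loss of at least 25 percentage points of H3K27ac cover was seen at 40 promoters, or 5.59% (4.02 to 7.53), where 11.2% of all autosomal WT H3K4me3 peaks had such a loss. A gain of that size was seen at 20, or 2.79%, where the share among all was 3.73%. H3K27ac of WT without any in the mutant was found at 4 promoters, or 0.559% (0.152 to 1.42), where the share among all was 9.40%. The reverse was found at 1 promoter, or 0.140%, where the share among all was 1.77%. Since a percentage of a wide peak is more base pairs than the same percentage of a narrow one, these shares are not on the same scale of length.

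The largest loss was on chromosome 13 from 49282205 to 49286991, where mutant H3K27ac covered 0 bp and WT H3K27ac all 4787 bp. The same promoter had 1031 bp of H3K79me2 in the mutant against 3814 bp in WT, 1989 bp of H3K4me1 in the mutant against 3164 bp in WT, and an H3K4me3 peak of 3966 bp in the mutant against 4787 bp in WT. All 4 active marks were thus shorter there in the mutant. On chromosome 10 from 96082071 to 96087374 H3K27ac covered 733 bp in the mutant and 4805 bp in WT, while H3K79me2 covered 5042 bp in the mutant and 5128 bp in WT. On chromosome 10 from 80956920 to 80962815 H3K27ac covered 1741 bp in the mutant and 5860 bp in WT. On chromosome 7 from 90013645 to 90018434, H3K27ac covered 0 bp in the mutant and 3343 bp in WT, and H3K79me2 0 bp in the mutant and 1657 bp in WT, under H3K4me3 peaks of 4590 bp in the mutant and 4790 bp in WT.

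Gains of H3K27ac were smaller. On chromosome 9 from 117157959 to 117162811 the mutant had 4003 bp of H3K27ac and WT 1487 bp. On chromosome 8 from 42122636 to 42127913 the mutant had 4484 bp and WT 1831 bp. With scores of at least 200 in each list, these gains of 51.8 and 50.3 percentage points were 82.5 and 9.53 points. Of the remaining promoters without H3K27ac in some list, 3 had none in either genotype. They include 1 of the 5 widest promoters, on chromosome 15 from 76002210 to 76014658, whose H3K79me2 covered 5146 bp in the mutant and 10691 bp in WT. Another, on chromosome 17 from 39979832 to 39984021, had no peak of any mark other than H3K4me3 in either genotype. That region was singled out after its values were seen. The third, on chromosome 3 from 45179733 to 45186027, is described with H3K27me3.

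H3K4me1 was found at fewer of these promoters in the mutant with the lists as deposited. It overlapped 251 promoters in the mutant, or 35.1% (31.6 to 38.7), and 391 in WT, or 54.6% (50.9 to 58.3). Its mean cover was 9.94% of the promoter in the mutant and 19.5% in WT. Both genotypes had it at 216 promoters, WT alone at 175, the mutant alone at 35, and neither at 290. Of the 391 promoters with WT H3K4me1, 55.2% (50.2 to 60.2) had mutant H3K4me1, against 31.8% (30.3 to 33.4) of the 3582 autosomal WT H3K4me3 peaks with WT H3K4me1. The broad promoters are longer, and a longer region can meet a mutant peak by its length alone, which was not adjusted for. Shares of all promoters are on another base, since more of the broad promoters had WT H3K4me1 to begin with. H3K4me1 in WT and none in the mutant, 24.4% (21.3 to 27.8) of the promoters, compares with 17.1% of all autosomal WT H3K4me3 peaks. H3K4me1 in the mutant and none in WT, 4.89% of the promoters, compares with 2.84%. A loss of at least 25 points of cover was seen at 120, or 16.8% (14.1 to 19.7), where the share among all was 14.5%. A gain of that size was seen at 4, or 0.559%, where it was 1.96%.

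The number of promoters with H3K4me1 depended on the length of the H3K4me1 lists that were compared. With the WT list limited to its 5358 strongest peaks, the length of the mutant list, 251 promoters had H3K4me1 in the mutant and 245 in WT, or 35.1% (31.6 to 38.7) and 34.2% (30.7 to 37.8). Mean cover was then 9.94% in the mutant and 13.2% in WT. The difference in mean cover was -9.58 percentage points with the lists as deposited and -3.27 points with lists of equal length. The count of promoters with H3K4me1 was therefore not lower in the mutant at equal list length, while the covered length still was. Limiting the WT list also removes any true difference in the number of H3K4me1 peaks. The values at equal length thus cannot tell such a difference from one of read depth or peak calling, and neither was tested. At equal list length the mean difference in H3K79me2 cover was -4.94 points. It cannot be ranked against that of H3K4me1, because the lists were cut unequally. The WT list went from 15981 to 5358 peaks for H3K4me1 and from 26353 to 22103 for H3K79me2. H3K79me2 also covered far more of the promoters in both genotypes.

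H3K4me1 was densest along the inner edges of the promoters. In the first 200 bp inside an edge, mutant H3K4me1 covered 11.3% of the length and WT H3K4me1 25.2%. Near 1900 bp inside the edge it was 7.66% in the mutant and 14.6% in WT, and near 3900 bp outside it was 4.77% in the mutant and 13.2% in WT. These values are of the lists as deposited. With lists of equal length the WT values were 15.9%, 10.7% and 9.26% in that order, and the mutant values were unchanged. In the 2 kb flanks on either side, mean cover was 8.03% in the mutant and 18.5% in WT, and 8.03% and 12.5% with lists of equal length. With the lists as deposited, H3K4me1 reached past at least 1 edge of the promoter less often in the mutant. Its peaks stayed within the promoter at 41.8% (35.7 to 48.2) of the 251 promoters that had it in the mutant. In WT they did so at 103 of 391, or 26.3% (22.0 to 31.0). No value at equal list length is given for this share.

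**Figure D2:**
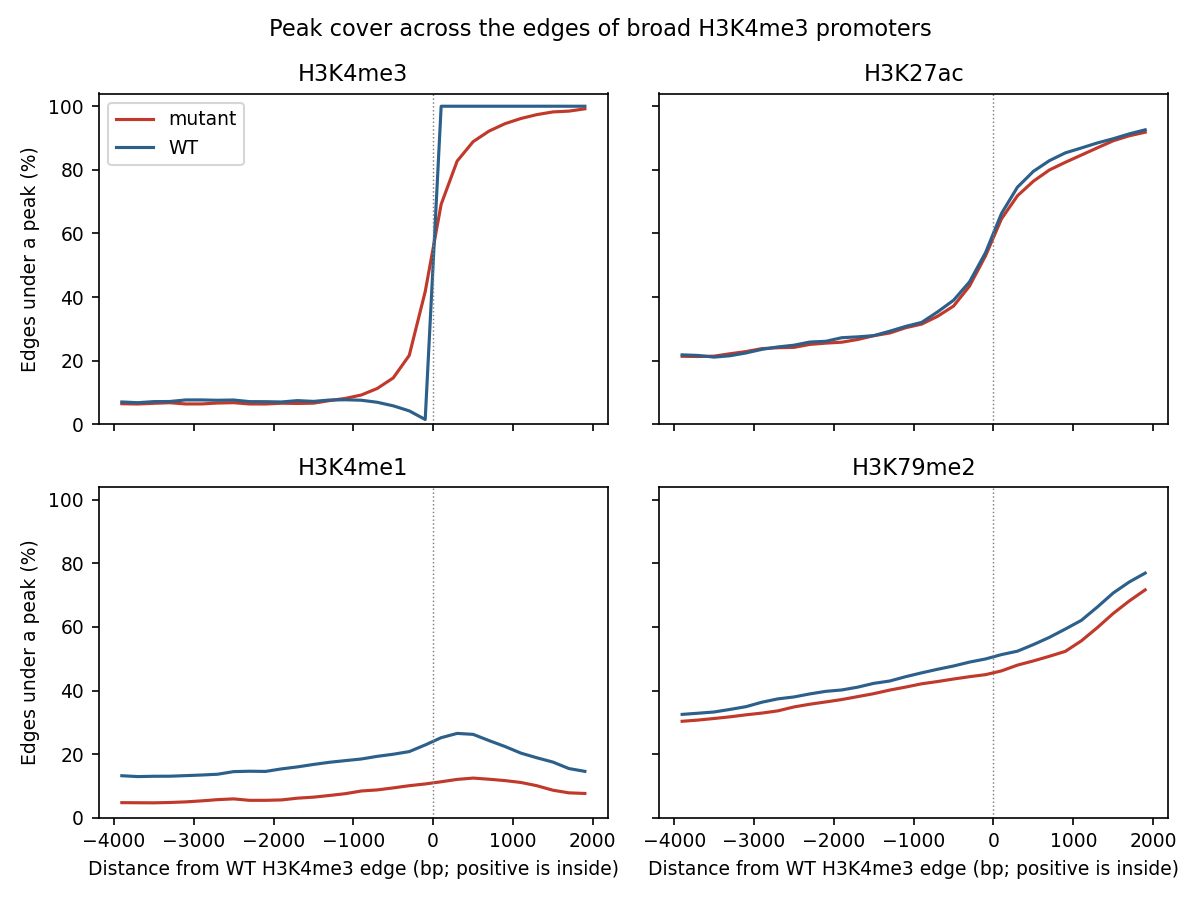
Share of the length of 200 bp windows around the WT H3K4me3 edges that lay under a peak of each mark (vertical axis, %) by distance from the edge (horizontal axis, bp, positive inside the promoter), both edges of all 716 promoters averaged. The lists are as deposited. H3K27ac runs at nearly the same level in the mutant (red) and WT (blue), and H3K79me2 is slightly lower in the mutant throughout. H3K4me1 is lower in the mutant at every distance, with 11.3% against 25.2% in WT just inside the edge. With lists of equal length, not drawn, the WT value there is 15.9%.

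The largest losses of H3K4me1 cover were at promoters that H3K27ac covered in full in the mutant. On chromosome 12 from 85513671 to 85518001 H3K4me1 covered 990 bp in the mutant and all 4331 bp in WT, and H3K27ac all 4331 bp in each genotype. On chromosome 3 from 89188806 to 89193086, already named for its width, H3K4me1 covered 0 bp in the mutant and 3089 bp in WT. On chromosome 4 from 63218805 to 63224140 it covered 1081 bp in the mutant and 4659 bp in WT, under H3K4me3 peaks of 7316 bp in the mutant and 5336 bp in WT. On chromosome 5 from 139854650 to 139859237 it covered 0 bp in the mutant and 2998 bp in WT, under H3K4me3 peaks of 6204 bp in the mutant and 4588 bp in WT. At 3 of these 4 the mutant H3K4me3 peak was the wider. The share wider was 51.3% over the 716 promoters and 71.5% over all autosomal WT H3K4me3 peaks with a mutant peak. At the 175 promoters with H3K4me1 in WT alone the mutant H3K4me3 peak was wider at 89 and narrower at 86. The 4 picked regions therefore do not stand for the set in this respect. With lists of equal length the losses on chromosome 3 and chromosome 5 were -34.0 and -40.6 percentage points of cover, against -72.2 and -65.3 points as deposited. The gains were shorter. On chromosome 12 from 66065545 to 66069802 the mutant had 1493 bp of H3K4me1 and WT 0 bp, on chromosome 6 from 85279634 to 85284228 the mutant had 1338 bp and WT 0 bp, and on chromosome 1 from 132990516 to 132994909 the mutant had 2011 bp and WT 732 bp. With scores of at least 200, the difference in H3K4me1 cover on chromosome 6 was 0.

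Flanking H3K27ac differed between promoters with and without H3K4me1 in the deposited lists, which held 5358 mutant and 15981 WT peaks. The groups also differed in width. The median WT width was 5095 bp with H3K4me1 in both genotypes, 4854 bp in WT alone, 4644.5 bp in neither and 4509 bp in the mutant alone. Flanking H3K27ac differed by width too, as given below, and width was not adjusted for. Where both genotypes had H3K4me1, H3K27ac covered 45.5% of the 2 kb flanks in the mutant and 44.9% in WT. Where neither had it, the values were 25.6% in the mutant and 27.6% in WT. Promoters with H3K4me1 in WT alone lay between, at 36.1% in the mutant and 36.3% in WT. Their flanking H3K27ac was thus alike in the genotypes. That their H3K4me1 peak was absent from the mutant list depends on list length. With lists of equal length 251 promoters had H3K4me1 in the mutant and 245 in WT, and no values at equal length are given for these groups. The 35 promoters with H3K4me1 in the mutant alone had the lowest values, 19.4% in the mutant and 23.7% in WT. Large H3K27ac domains, formed by joining H3K27ac peaks across gaps of up to 12.5 kb and at least 20 kb long, followed the same order of groups. They overlapped 58.8% (51.9 to 65.4) of the promoters with H3K4me1 in both genotypes in the mutant and 64.4% (57.6 to 70.7) in WT, against 34.5% (29.0 to 40.3) in the mutant and 35.9% (30.3 to 41.7) in WT of those with none. At the 35 with H3K4me1 in the mutant alone the shares were 25.7% (12.5 to 43.3) in the mutant and 31.4% (16.9 to 49.3) in WT.

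**Figure D3:**
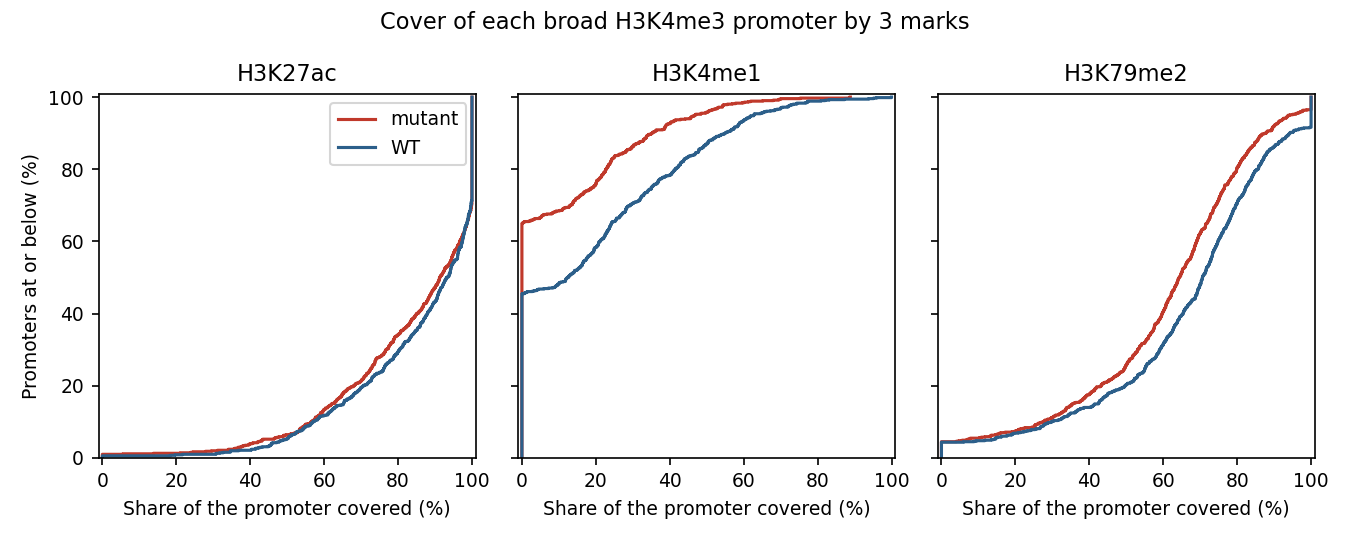
Cumulative share of the 716 broad promoters (vertical axis, %) whose cover by H3K27ac, H3K4me1 or H3K79me2 is at or below the value on the horizontal axis (% of the promoter's length). The mutant (red) and WT (blue) curves nearly coincide for H3K27ac, part at 0 for H3K4me1, where 465 mutant and 325 WT promoters have no peak, and are shifted to lower cover in the mutant for H3K79me2.

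H3K79me2, the mark of transcribed gene starts, was present at nearly all of these promoters. It overlapped 684 of 716 in the mutant, or 95.5% (93.7 to 96.9), and 685 in WT, or 95.7% (93.9 to 97.0). H3K79me2 in WT and none in the mutant was found at 14, or 1.96% (1.07 to 3.26), where 8.68% of all autosomal WT H3K4me3 peaks had this pattern. The reverse was found at 13, or 1.82%, where the share among all was 1.89%. Presence was thus alike in the genotypes, and cover was lower in the mutant. The comparison of presence with all peaks rests on unlike lengths, since a wider region can meet a peak by its length alone. Median H3K79me2 cover was 64.4% in the mutant and 70.6% in WT, and the mean was 60.7% in the mutant and 65.9% in WT. The paired difference had a median of -2.73 percentage points, where that over all autosomal WT H3K4me3 peaks was 0. These medians are on unlike bases, since 58.3% of all autosomal WT H3K4me3 peaks had WT H3K79me2. The mean difference was -5.25 points at the broad promoters and -6.75 points over all, so the loss was not larger at the broad promoters by this measure. The unlike bases bear on the shares of large losses given below as well. Cover was lower in the mutant at 482 promoters, higher at 194 and equal at 40. A loss of at least 25 points was seen at 63, or 8.80% (6.83 to 11.1), where the share among all was 12.6%, and a gain of that size at 17, or 2.37%, where it was 1.95%.

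The largest H3K79me2 loss was on chromosome 16 from 15886230 to 15891806, with 1658 bp in the mutant and 5577 bp in WT. H3K27ac there covered 5562 bp in the mutant and 5424 bp in WT, and the H3K4me3 peak was 5723 bp wide in the mutant and 5577 bp in WT, so the other marks did not share the loss. On chromosome 3 from 28161035 to 28165169 H3K79me2 covered 0 bp in the mutant and 2717 bp in WT. On chromosome 15 from 56521871 to 56526889 it covered 1316 bp in the mutant and 4099 bp in WT, and H3K27ac 1844 bp in the mutant and 2714 bp in WT. The remaining promoter of the 4 was that on chromosome 13 described for H3K27ac. Of the gains, 2 were at promoters without H3K79me2 in WT. On chromosome 11 from 16904338 to 16909032 H3K79me2 covered 2385 bp in the mutant and 0 bp in WT, and on chromosome 1 from 40571206 to 40575241 it covered 1569 bp in the mutant and 0 bp in WT. H3K27ac cover was shorter in the mutant at both, with 2479 and 2221 bp in the mutant against 4695 and 4036 bp in WT. On chromosome 3 from 84469456 to 84474121 H3K79me2 covered 3884 bp in the mutant and 2036 bp in WT. This last gain of 39.6 points was 82.0 points at a −log10 q of at least 5.

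H3K79me2 also gave most promoters a direction, since it runs into the transcribed gene. In WT it covered at least 2500 bp of the adjoining 5 kb on a single side at 444 promoters, on both sides at 53, and on neither side at 219. Of the 444 with a single side, 380 kept that side alone in the mutant, or 85.6% (82.0 to 88.7), 11 had both sides, 53 had neither and 0 had the opposite side (0%, up to 0.827% at the upper bound of the interval). At the 380 promoters with a single H3K79me2 side in each genotype that were drawn from these 444, it was the same side.

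Around these 444 promoters the marks were arranged unevenly. H3K4me1 lay on the H3K79me2 side. From the midpoint of the promoter to the edge on that side it covered 20.6% in the mutant and 34.3% in WT, and from the midpoint to the other edge 3.14% in the mutant and 8.57% in WT. In the 2 kb flank of the H3K79me2 side it covered 16.0% in the mutant and 31.9% in WT, and in the opposite flank 4.05% in the mutant and 9.48% in WT. H3K27ac was denser towards the other edge, with 94.9% in the mutant and 95.2% in WT from the midpoint to that edge, against 72.1% in the mutant and 73.6% in WT on the H3K79me2 side. Both arrangements were found in each genotype.

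**Figure D4:**
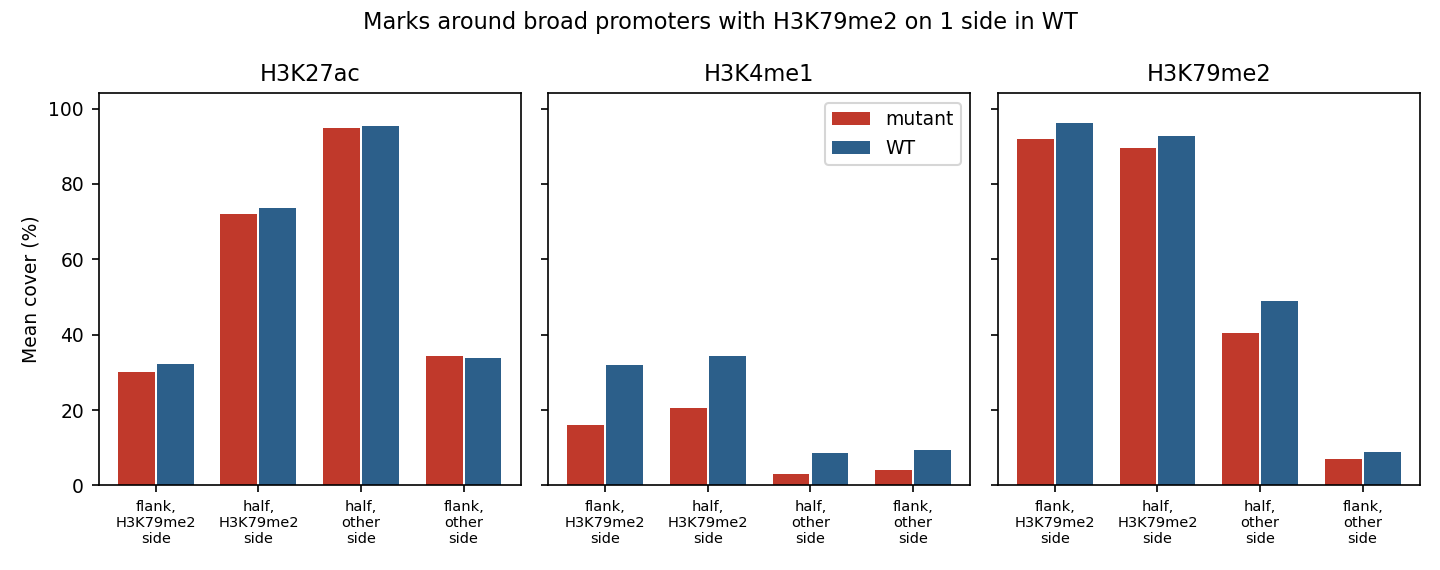
Mean cover (vertical axis, %) by H3K27ac, H3K4me1 and H3K79me2 in the 2 kb flanks and in the portions from the midpoint to either edge (horizontal axis), for the 444 broad promoters with H3K79me2 on a single side in WT. Bars are means over promoters without an error, since each bar comes from 1 library. H3K4me1 is on the H3K79me2 side in mutant (red) and WT (blue), at 20.6% and 34.3% of the portion on that side.

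The edges of the H3K4me3 peak itself moved unequally. At the 415 of these promoters with a single mutant H3K4me3 peak, the mutant edge on the H3K79me2 side lay inside the WT edge by a median of 82 bp (median outward move -82 bp, interquartile range -489 to 217.5 bp). On the other side it lay outside by a median of 72 bp (-26.5 to 206 bp). The mutant edge was further out on the H3K79me2 side at 41.4% (36.7 to 46.4) of promoters and on the other side at 70.4% (65.7 to 74.7). At the 2645 narrower peaks (2000 bp to under 4000 bp) with the same properties these shares were 62.5% (60.7 to 64.4) and 65.8% (64.0 to 67.6), with median outward moves of 69 and 58 bp. At 444 promoters chosen by mutant width they were 56.5% (51.8 to 61.2) and 76.8% (72.6 to 80.7), with median outward moves of 71.5 and 105.5 bp. The inward sign on the H3K79me2 side therefore held for the promoters chosen in WT and not for those chosen in the mutant. In both of these sets the outward share was lower on the H3K79me2 side. At the narrower peaks the intervals of the shares overlapped and the medians had the opposite order.

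Where H3K79me2 lay on neither side, the mutant H3K4me3 peak was wider at 145 of 219 promoters, or 66.2% (59.5 to 72.4), with a median of 5214 bp in the mutant and 4909 bp in WT. Where it lay on 1 or both sides, the mutant peak was wider at 222 of 497, or 44.7% (40.2 to 49.2). Among all autosomal WT H3K4me3 peaks with a mutant peak the share was 71.5%, within the interval of the group with neither side. These shares rest on the WT width that chose the promoters. Of the 875 regions chosen by mutant width, 75.3% were wider in the mutant. Promoters with a much wider mutant peak also had more H3K27ac in their 2 kb flanks in both genotypes. At the 69 with a mutant peak at least 25% wider, H3K27ac covered 54.9% of the 2 kb flanks in the mutant and 54.8% in WT. At the 87 with a peak at least 20% narrower, it covered 32.6% in the mutant and 36.2% in WT. At 33 of the 69 the mutant peak spanned 2 or more WT peaks, so their flanks can hold another WT H3K4me3 peak. The shares in large H3K27ac domains were closer. They were 46.4% of the 69 and 42.5% of the 87 in the mutant, and 50.7% and 46.0% in WT. Across the 716 promoters the width difference and the difference in flanking H3K27ac had a Spearman rho of 0.05, a description across regions that share libraries.

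H3K27me3, which the rule kept out in WT, was found at 20 promoters in the mutant, or 2.79% (1.71 to 4.28), where 2.06% of all autosomal WT H3K4me3 peaks without WT H3K27me3 had it. The covered length ran from 7 to 3632 bp with a median of 512 bp, and 19 of the 20 promoters still had mutant H3K27ac. At a −log10 q of at least 5 none of the 4 regions that follow had mutant H3K27me3. The longest was on chromosome 3 from 45179733 to 45186027, with 3632 bp of mutant H3K27me3 and no H3K27ac, H3K79me2 or H3K4me1 in either genotype. Its widest mutant H3K4me3 peak was 3067 bp, against 6295 bp in WT. On chromosome 4 from 55542445 to 55547054 mutant H3K27me3 covered 3610 bp, yet H3K27ac covered 3647 bp in the mutant and 1462 bp in WT, the third largest gain of H3K27ac. On chromosome 1 from 36610917 to 36616574 mutant H3K27me3 covered 2664 bp, and H3K79me2 covered 2907 bp in the mutant and 4925 bp in WT. On chromosome 10 from 80391233 to 80396828 it covered 1471 bp, and H3K79me2 covered 1697 bp in the mutant and 0 bp in WT. The mutant H3K27me3 list was the longer, with 14712 peaks against 13277 in WT, and with lists of equal length the share of promoters with mutant H3K27me3 was 2.37%.

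Within the set, several marks were higher at the widest promoters than at the narrowest. Between the 38 promoters of at least 8000 bp and the 267 of 4000 to 4499 bp, H3K27ac cover of the 2 kb flanks differed, with 28.3% in the narrowest group and 52.0% in the widest in the mutant, and 28.7% and 56.2% in WT. H3K4me1 was present at 32.2% of the narrowest group and 55.3% of the widest in the mutant, and at 47.2% and 68.4% in WT. The share in large H3K27ac domains was 35.2% in the narrowest group and 76.3% in the widest in the mutant, and 39.3% and 78.9% in WT. A wider region can meet another peak by its length alone, which bears on the shares and less on the cover. H3K79me2 cover of the promoter was 58.6% in the narrowest and 66.9% in the widest group in the mutant, and 65.0% and 73.4% in WT, so the mutant value was lower at both ends. H3K79me2 cover of the flanks did not follow width, with 44.2% in the narrowest and 42.7% in the widest group in the mutant, and 47.3% and 47.5% in WT. The order was not even throughout, as the 155 promoters of 4500 to 4999 bp had 26.9% flanking H3K27ac and 27.7% with H3K4me1 in the mutant, below the narrowest group.

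Other WT H3K4me3 peaks show where the broad promoters differed. H3K79me2 covered a mean of 60.7% of the broad promoters in the mutant and 65.9% in WT, against 41.6% in the mutant and 50.5% in WT of the 4787 narrower peaks (2000 bp to under 4000 bp) without H3K27me3. H3K27ac covered 33.8% of their 2 kb flanks in the mutant and 34.8% in WT, against 14.2% in each genotype at the narrower peaks. Mutant H3K4me1 was found at 55.2% (50.2 to 60.2) of the broad promoters with WT H3K4me1 and at 33.1% (30.8 to 35.5) of such narrower peaks. The mean WT width was 5250 bp for the broad promoters and 2658 bp for the narrower peaks. A wider region can meet a mutant peak by its length alone, so these 2 shares do not compare retention at equal length. H3K79me2 losses of at least 25 points were at 8.80% (6.83 to 11.1) of the broad promoters and at 15.9% (14.9 to 17.0) of the narrower peaks. The classes come from the same libraries, so these differences were not tested, and they hold peaks of unlike strength. A WT H3K4me3 score at or above 3100, where most of the strongest peaks are tied, was reached by 58.7% of the broad promoters and 7.46% of the narrower peaks.

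The 117 broad peaks with WT H3K27me3 were of similar width, with a median of 4679 bp in the mutant and 4662 bp in WT, and had less of the active marks. H3K27ac covered a mean of 83.7% of the broad promoters without H3K27me3 in the mutant and 85.4% in WT, against 53.1% and 53.9% of those with it. H3K79me2 losses of at least 25 points were at 8.80% (6.83 to 11.1) of the promoters without H3K27me3 and at 35.0% (26.5 to 44.4) of those with it. Mutant H3K79me2 overlapped 98.0% (96.6 to 98.9) of the promoters without H3K27me3 that had it in WT, and 76.0% (66.4 to 84.0) of those with H3K27me3.

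**Figure D5:**
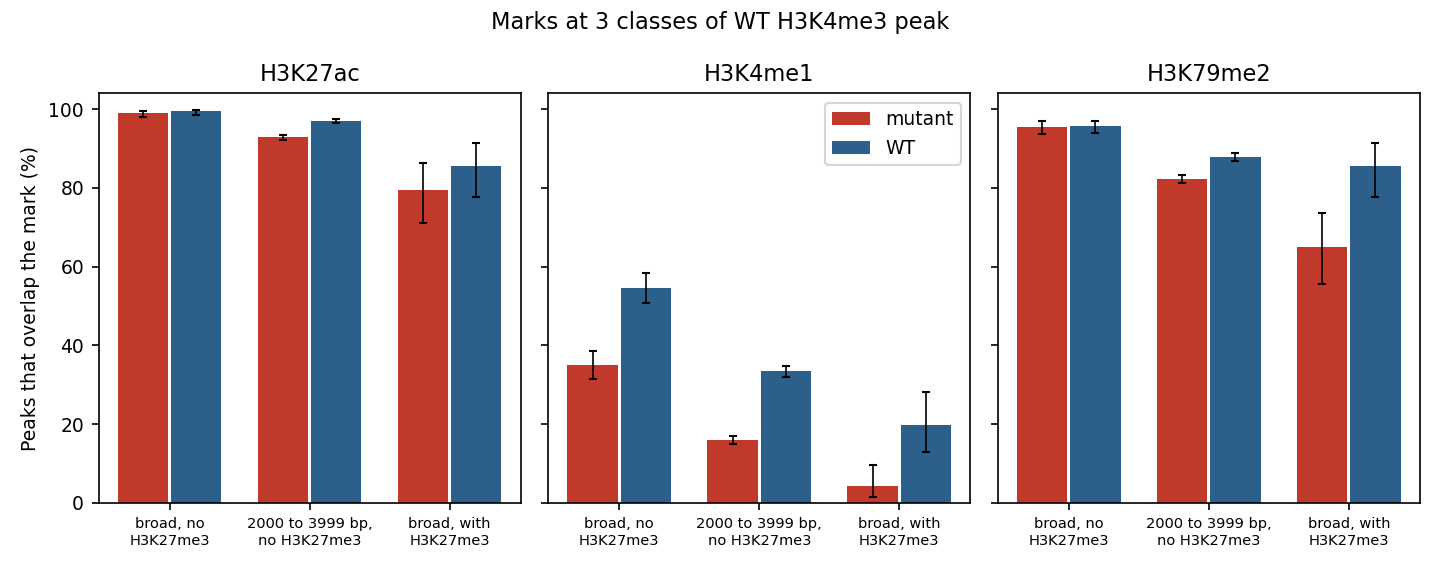
Share of WT H3K4me3 peaks that overlap H3K27ac, H3K4me1 or H3K79me2 (vertical axis, %) in the mutant (red) and WT (blue), for the 716 broad promoters, 4787 narrower peaks and 117 broad peaks with H3K27me3. Error bars are exact 95% binomial intervals for counting error over peaks. The broad promoters have the highest share for each mark in both genotypes, with H3K4me1 at 35.1% in the mutant and 54.6% in WT. The narrower peaks are shorter, and a shorter region meets fewer peaks by its length alone.

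Peaks on either side of the 4000 bp limit were alike in most marks. The 4 just inside measured 4000, 4003, 4003 and 4003 bp in WT, on chromosome 8 from 73140057, on chromosome 17 from 29230213 and from 88839141, and on chromosome 2 from 60046878. Their mutant peaks measured 4454, 4090, 3723 and 5027 bp in that order. The 4 just outside were 1 to 3 bp narrower than the limit in WT, on chromosome 6 from 37388629, chromosome 7 from 17427639, chromosome 19 from 3904129 and chromosome 5 from 135662018. Their mutant peaks measured 3291, 4716, 4404 and 2835 bp in that order. All 8 had H3K27ac and H3K79me2 in both genotypes, and of these 8 peaks the limit left those with H3K4me1 on the outside, with 639 bp in the mutant and 957 bp in WT on chromosome 19, 1549 bp in the mutant and 0 bp in WT on chromosome 5, and 0 bp in the mutant and 359 bp in WT on chromosome 7.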

How the data were processed

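The 10 deposited peak lists each come from 1 library. The submitters' processing notes list mm9 as the build and Bowtie, MACS, MACS2 and deepTools as tools, and give no version or role. Coordinates are those of the deposited lists, counted from 1. The highest peak end on chromosome 1, 197068571, fits mm9 and lies past the end of that chromosome in the later build of the gene tables at hand, which were therefore not used. In the H3K4me3, H3K27ac and H3K4me1 lists the deposited score follows the MACS form, −log10 of a peak's p-value times 10, and starts near 90. The H3K79me2 and H3K27me3 lists are broad peaks for which the authors deposited a fold enrichment (a ratio), the −log10 of p, and the −log10 of q. Scores served to filter or rank within a list. The input libraries were not analysed here.

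Broad promoters were chosen as stated in the report. Peaks overlapped when they shared at least 1 bp, and cover is the percentage of a region's length under peaks. A difference was called at a width at least 25% greater or 20% smaller, or at 25 percentage points of cover. Flanks were 2 kb on each side. Shares have exact (Clopper-Pearson) 95% intervals, which cover counting error only. Named regions were the 5 widest promoters, the 4 largest gains and losses in width, the 4 largest losses and 3 largest gains of cover per active mark, the 4 with the most mutant H3K27me3, and 4 peaks on either side of the limit. Members, lists and classes were chosen with earlier results of these data known. The alternatives were stricter thresholds, merged peaks, lists of equal length, other width limits and overlaps, and promoters chosen by mutant width. The alternatives for the edge comparison, a still stricter threshold (score of 200, −log10 q of 5) and the set broad in either genotype were added after seeing the data. The planned gene lists were not run. The software was Python 3.11.15, numpy 2.4.6, pandas 2.3.3, scipy 1.17.1 and matplotlib 3.10.9, and the overlap code was tested on simulated data.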

Additional observations from a re-analysis of the deposited data

How the results depend on the processing

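Most values kept their direction and size. The stricter threshold (scores from 100, −log10 q from 3) moved no result by more than 1.5 times. The median width difference of 10.5 bp had no stable sign: it was -40 bp with peaks merged within 1000 bp, -64 bp for promoters of at least 6000 bp, 45.5 bp with the mutant peak widths summed, 53 bp with them joined, 422 bp with mutant peaks setting the promoters and 278 bp with either genotype. The mean H3K27ac cover difference of -1.69 points was -2.82 points with merged peaks, -0.348 points for promoters of at least 6000 bp, -0.265 points with mutant peaks and -0.63 points with either genotype setting the promoters. With lists of equal length, the H3K4me1 difference was -3.27 points in the promoters (-9.58 as deposited) and -4.48 points in the 2 kb flanks (-10.5 as deposited). The share with mutant H3K27me3 was 1.399% for promoters of at least 6000 bp and 1.68% when at least 10% had to be covered. With the still stricter threshold it was 5.09%, over another set. That threshold also dropped weaker WT H3K27me3 peaks, so the rule then chose 805 promoters instead of 716. At the still stricter threshold the 4 regions named for mutant H3K27me3 had none. A limit of 5000 bp left 294 promoters, of which 95.9% had a mutant peak of at least 4000 bp, and a limit of 6000 bp left 143, with 97.2%. Of those 143, 45.5% were wider in the mutant. The edge on the H3K79me2 side moved by -199 bp with merged peaks. The cause of these changes was not tested. Of 144 recomputed values for named regions none changed sign and 19 moved by over 1.5 times. No paired analysis was possible because each genotype and mark has 1 library.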

Other observations

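Broad promoters were spread over all 19 autosomes. Chromosome 11 held 73 and chromosome 7 held 66, and chromosome 14, with 15, the fewest. As a share of each chromosome's WT H3K4me3 peaks without H3K27me3 they ranged from 3.75% on chromosome 14 to 7.86% on chromosome 17. Neighbouring broad promoters lay a median of 1247 kb apart, and 17 of 697 neighbouring pairs were within 10 kb. A single mutant H3K4me3 peak joined 2 or more of them in 5 cases.

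The mutant list also held 305 broad H3K4me3 peaks without mutant H3K27me3 whose widest WT peak was under 4000 bp. Their median width was 4413 bp in the mutant and 3453 bp in WT. H3K27ac covered a mean of 78.4% of them in the mutant and 77.0% in WT, H3K79me2 47.3% in the mutant and 51.1% in WT, and H3K4me1 7.45% in the mutant and 22.2% in WT. With the lists as deposited, the mean H3K4me1 cover was thus lower in the mutant at peaks that were wider in the mutant, as it was at those chosen in WT. The deposited H3K4me1 lists held 5358 mutant and 15981 WT peaks, and no value at equal list length is given for these 305 peaks.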
